A study of Mus musculus with 4 samples.

Results

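Acot1, Acot2, Acsl1 and Pex11a, genes that handle acyl-CoA or shape peroxisomes, were measured in C2C12 cells, an established line of mouse myoblasts able to form myotubes. They were taken as every row with exactly one of these symbols in the authors' deposited table of Bex against Ctrl, which gave 4 rows, 1 for each gene, among 536 genes with a single symbol there and 35557 transcript clusters on the array. Confluent cells were kept for 48 h in a basal medium for adipogenesis, alone (Ctrl, 2 arrays) or containing Bex at 10 µM (2 arrays). The labels do not spell out Bex; as known from the study, it is bexarotene, which activates retinoid X receptors, and the question was whether it turns such cells towards brown fat. Both groups share the line and the basal adipogenic medium, so the Ctrl cells are not cells in growth medium. The labels name 2 batches of treated cells but not which array came from which, so the spread between arrays may be partly technical.

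A fatty acid that enters a cell is first joined to coenzyme A. Acsl1 is a long-chain acyl-CoA synthetase of the outer mitochondrial membrane and the endoplasmic reticulum that makes this activated form. Acyl-CoA thioesterases do the reverse and release the free fatty acid and coenzyme A, Acot1 in the cytosol and Acot2 in the mitochondrial matrix. Pex11a is a membrane protein that elongates peroxisomes before they divide; peroxisomes shorten very long and branched acyl-CoA before mitochondria take over. In mouse tissues all 4 genes are known targets of PPARs, nuclear receptors that bind DNA as pairs with a retinoid X receptor. Brown fat is rich in fatty acid oxidation.

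The upstream sequence of the 4 genes is shown because PPAR and retinoid X receptor pairs are known to bind a direct repeat of AGGTCA with 1 base between both copies. The windows below are the 250 bases before each start, 5′ to 3′ on the strand of the gene, from RefSeq on GRCm38.p6, a build that the array files do not name. All 4 genes matched the RefSeq promoter table by symbol, and Acsl1 has 2 starts there. Capitals mark CCAAT boxes and GC boxes (GGGCGG), on either strand, so they also appear as ATTGG or CCGCCC.
Acot2, chr12:83987611-83987860, plus strand: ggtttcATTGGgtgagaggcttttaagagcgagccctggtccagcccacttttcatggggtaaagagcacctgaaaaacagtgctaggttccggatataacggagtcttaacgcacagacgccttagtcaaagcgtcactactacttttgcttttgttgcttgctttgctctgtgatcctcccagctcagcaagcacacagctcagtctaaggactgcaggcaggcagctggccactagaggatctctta
Acot1, chr12:84009252-84009501, plus strand: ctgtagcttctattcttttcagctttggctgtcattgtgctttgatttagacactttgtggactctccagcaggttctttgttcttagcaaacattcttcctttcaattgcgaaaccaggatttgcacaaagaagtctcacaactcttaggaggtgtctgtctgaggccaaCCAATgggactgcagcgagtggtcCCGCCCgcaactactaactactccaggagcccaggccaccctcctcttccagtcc
Acsl1 start 1, chr8:46470787-46471036, plus strand: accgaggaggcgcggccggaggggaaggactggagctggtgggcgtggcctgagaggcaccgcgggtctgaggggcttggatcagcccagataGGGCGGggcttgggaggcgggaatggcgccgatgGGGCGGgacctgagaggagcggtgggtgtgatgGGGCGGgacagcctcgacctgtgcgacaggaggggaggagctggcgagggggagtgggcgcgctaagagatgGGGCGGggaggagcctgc
Acsl1 start 2, chr8:46490716-46490965, plus strand: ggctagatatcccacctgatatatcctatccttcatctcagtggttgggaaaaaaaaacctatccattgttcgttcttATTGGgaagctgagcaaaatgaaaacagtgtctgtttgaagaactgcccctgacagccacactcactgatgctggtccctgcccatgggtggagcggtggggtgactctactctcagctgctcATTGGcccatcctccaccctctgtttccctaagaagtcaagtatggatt
Pex11a, chr7:79743132-79743381, minus strand: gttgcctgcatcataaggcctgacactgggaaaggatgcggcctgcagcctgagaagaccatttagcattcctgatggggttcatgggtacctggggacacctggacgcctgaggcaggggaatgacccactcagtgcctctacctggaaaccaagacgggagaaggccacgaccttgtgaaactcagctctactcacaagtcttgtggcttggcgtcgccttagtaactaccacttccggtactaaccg

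Neither strand of these 5 windows held the single unit AGGTCA, which 14% of all 32851 windows of that length held. The direct repeat, AGGTCA and AGGTCA around 1 base of any kind, searched on both strands with at most 2 mismatched letters, overlaps the single unit and was in 0 of the 5 and in 3.24% of all. The absence of these letters covers these windows alone. A CCAAT box was in 3 of the 5 windows, against 33.8% of all, and a GC box in 2, against 32.7%. The first start of Acsl1 carried 4 GC boxes, 157, 123, 90 and 18 bases before the start, in a window of 72.0% G and C with 20 CG steps. The median window had 52.4% G and C and 6 CG steps. Its second start had 48.4% G and C, 2 CG steps and no GC box, so that the gene's 2 starts differed in base composition. Acot1 carried a CCAAT box 79 and a GC box 55 bases before its start, and Acot2 a CCAAT box 244 bases before its own. Although Acot2 and Acot1 are adjacent copies, their best local alignment over these windows covered 17 bases of Acot1, 16 of them identical. The Pex11a window held neither box. TATAAA was in 0 of the 5 windows and in 12.4% of all.

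The members were chosen by the authors' deposited fold change and p-value on the same 4 arrays that are described next. Values of Bex against Ctrl for these genes are therefore a description, without a test, and they support nothing beyond themselves. Over the whole table limma called 0 of 35557 clusters at a Benjamini-Hochberg adjusted p of 0.05, which is a background of 0%, with 4189 clusters at an unadjusted p below 0.05. A limma fit whose prior variance follows the level, called the variance-trend fit below, called 427, or 1.2%. Array medians lay between 5.76 and 5.80 on the log2 scale, and the median log2 difference over all clusters was −0.01. The small number of arrays limits the precision of every value, and in bulk RNA fewer cells expressing a gene and less RNA per cell cannot be told apart.

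Pex11a (cluster 10564805) had the largest difference of the 4. Its level (log2 RMA value, the authors' normalized scale) was 6.28 and 6.34 in Ctrl and 7.68 and 7.98 in Bex. The Bex values lay 1.33 or more above the Ctrl values, and the Bex arrays differed from each other by 0.30. The mean difference was 1.51 ± 0.14 (log2, SE of the limma fit, n = 2 per group), or 2.86-fold.

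Acot1 (cluster 10397148), the cytosolic thioesterase, had log2 levels of 5.39 and 5.14 in Ctrl and 6.38 and 6.56 in Bex. The groups were 0.99 apart at their closest, more than the gap of 0.25 between the Ctrl arrays. Acot1 was 2.31-fold higher (1.21 ± 0.14, log2, SE, n = 2 per group). Its Ctrl levels lay above 4.57, the mean level that bounds the dimmest 30% of clusters, and the files do not say whether they exceeded background. Acot2 (cluster 10397145), the mitochondrial thioesterase, had log2 levels of 7.76 and 7.84 in Ctrl and 8.98 and 8.98 in Bex. Its Bex arrays were only 0.0023 apart, against 0.087 for the Ctrl arrays. Acot2 was 2.27-fold higher (1.18 ± 0.08). The mean differences of both thioesterases were 0.03 ± 0.16 apart, which is within their error. As background, the mouse genes are closely related copies; their coding sequences were not compared here. Whether probes of one cluster take up signal of the other was not tested, so their separate values are uncertain.

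Acsl1 (cluster 10571657), the synthetase, had log2 levels of 7.22 and 7.13 in Ctrl and 8.25 and 8.25 in Bex. It was 2.11-fold higher (1.08 ± 0.08), the smallest difference of the 4. The difference of Pex11a exceeded that of Acsl1 by 0.44 ± 0.16, that of Acot2 by 0.33 ± 0.16 and that of Acot1 by 0.30 ± 0.19 (log2, the SEs of both genes combined as if independent, although they share arrays).

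**Figure D1:**
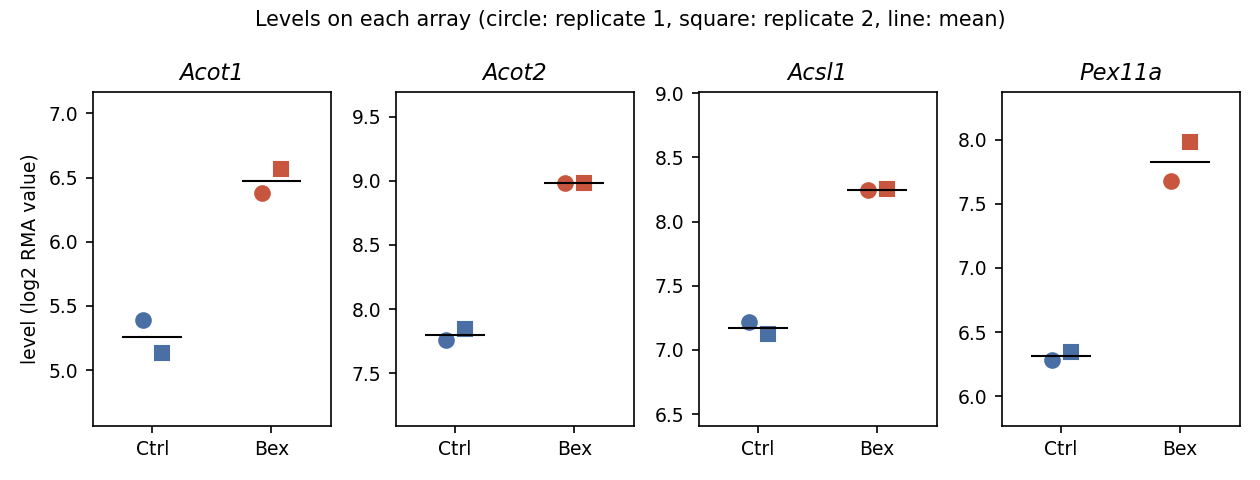
Levels (log2 RMA value) of Acot1, Acot2, Acsl1 and Pex11a on each of the 2 Ctrl and 2 Bex arrays, with circles for replicate 1, squares for replicate 2 and lines for group means; each panel spans the same number of log2 units. The groups do not overlap for any of the 4 genes, and the Bex arrays of Acot2 and Acsl1 nearly coincide.

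For each of the 4 genes both Bex arrays lay above both Ctrl arrays, as they did for 20.6% of all clusters. The smallest distance between groups was 0.99 (Acot1) and the largest gap within a group was 0.30 (Pex11a in Bex), so each difference was larger than the spread between replicates. All 4 were at least 2-fold higher, a size that 1.1% of all clusters reached in that direction. The share was 0.543% after dropping 6669 clusters numbered below the lowest ID of the authors' deposited table. No cluster outside that table is named in the files, whether its ID is low or not. As the rule used this contrast, nothing is read from these shares. Ordered by log2 difference among all clusters, Pex11a ranked 119, Acot1 225, Acot2 240 and Acsl1 325. The spread within groups differed among the 4 genes. The pooled SD within groups was 0.0435 for Acot2 and 0.0452 for Acsl1, larger than in 13.7% and 14.5% of all clusters, whereas it was 0.156 for Acot1 and 0.155 for Pex11a, larger than in 64.3% and 64.0%. The median over all clusters was 0.116.

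**Figure D2:**
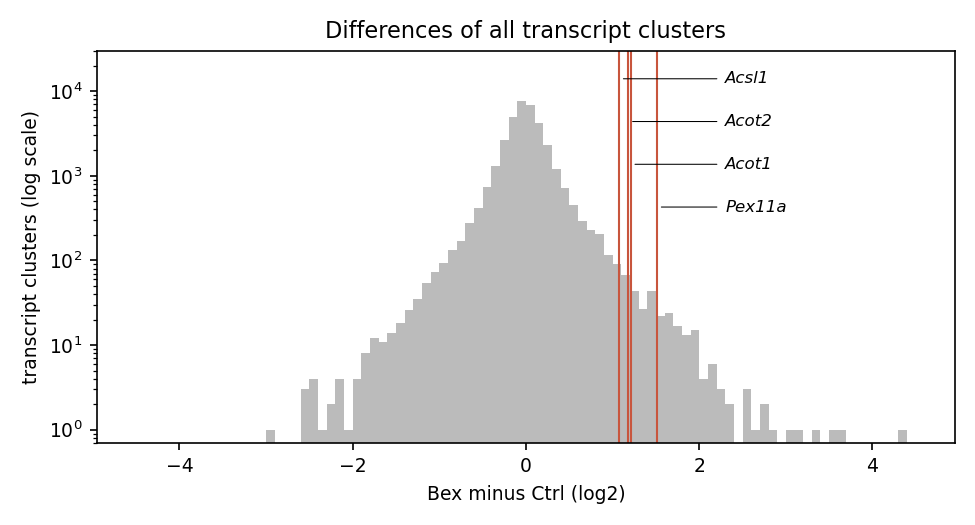
Histogram of Bex minus Ctrl (log2, horizontal axis) over all 35557 transcript clusters, with a logarithmic count axis; vertical lines mark Acsl1, Acot2, Acot1 and Pex11a. The 4 lines lie between 1.08 and 1.51, on the upper flank of the distribution.

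In the authors' deposited table the fold changes were 3.08 for Pex11a, 2.71 for Acot1, 2.28 for Acot2 and 2.17 for Acsl1, with unadjusted p-values of 0.011597, 0.029815, 0.001123 and 0.002641. All of its rows are at 1.5-fold or more, and the member nearest to that limit was Acsl1, well inside it. Clusters just outside are unnamed in the files and were not analysed here. The authors' deposited table gave FDR p-values of 0.352045 for Pex11a, 0.415408 for Acot1, 0.268244 for Acot2 and 0.303646 for Acsl1. The authors' deposited table and the value table agreed closely for Acot2, whose Ctrl averages differed by 0.02. For Acot1 the Ctrl average in the authors' deposited table was 4.85, which is 0.41 below the mean of the value table, and only 9 of its 559 rows had a larger gap. For Pex11a the Ctrl average in the authors' deposited table was 0.31 below the mean of the value table. The median gap over the authors' deposited table was 0.0712. The lead of Acot1 over Acot2, 2.71 against 2.28 in the authors' deposited table, was thus almost absent in the value table (2.31 against 2.27).

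**Figure D3:**
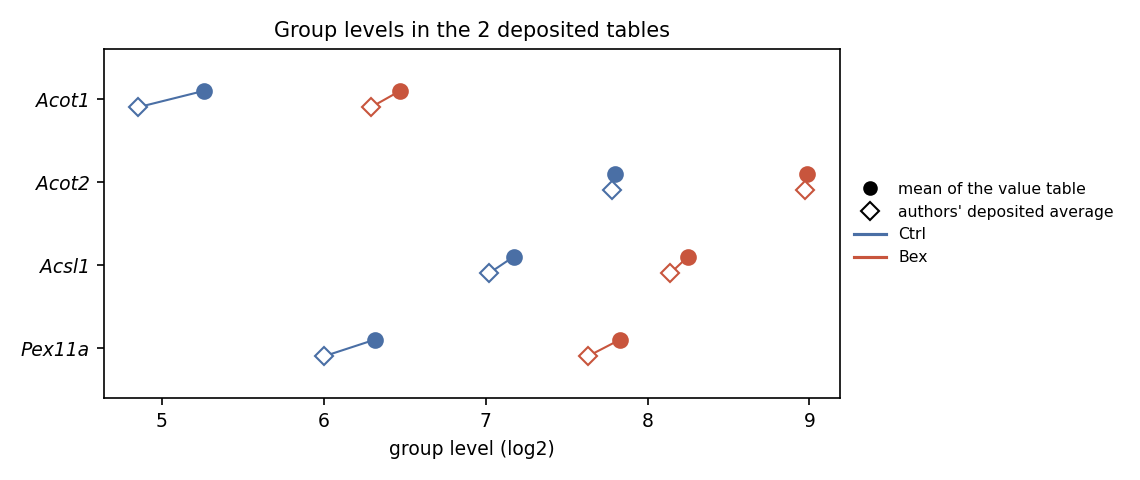
Group levels (log2, horizontal axis) of the 4 genes: filled circles are means of 2 arrays from the value table, open diamonds the authors' deposited averages, blue for Ctrl and red for Bex. The diamonds of Acot1 lie left of the circles by 0.41 in Ctrl and 0.18 in Bex, while those of Acot2 nearly meet them.

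The other genes of acyl-CoA and peroxisome metabolism could be named for few of the members of each list, because only rows of the authors' deposited table carry symbols. Of 118 genes in 6 lists (thioesterases, synthetases, acyl-CoA binding proteins, peroxisome biogenesis and division, peroxisomal enzymes and transporters, carnitine shuttle with mitochondrial beta-oxidation) 8 were named, and the other 110 were not analysed here. Besides the 4 members these were Acsl3, Acss2, Acox2 and Scp2, and all 4 were higher. The main test passed 0 of these 4 genes, as of all clusters (0%), so that count says nothing about them. The variance-trend fit passed 2, Acss2 and Scp2, beside the background of 0.762% of clusters called higher by that fit. The named rows were selected for their difference on these arrays, so the counts are not independent evidence of a direction.

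Among the synthetases, 3 of 24 listed genes were named. Acss2, which activates acetate, had log2 levels of 6.10 and 6.18 in Ctrl and 7.26 and 7.36 in Bex. Its groups did not overlap, and it was 2.25-fold higher (1.17 ± 0.09), a size close to that of Acsl1. Acsl3, the long-chain synthetase of the endoplasmic reticulum and lipid droplets, had log2 levels of 9.12 and 8.99 in Ctrl and 9.73 and 9.57 in Bex. It was 1.51-fold higher (0.59 ± 0.11) and lay just inside the cutoff, at 1.52 in the authors' deposited table. No thioesterase besides Acot1 and Acot2 was named of 16 listed, and no biogenesis gene besides Pex11a of 22.

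Of 29 peroxisomal enzymes and transporters 2 were named. Acox2, the oxidase for branched chains and bile acid precursors, had log2 levels of 6.23 and 6.40 in Ctrl and 7.14 and 7.40 in Bex, or 1.93-fold higher (0.95 ± 0.14). Scp2, a lipid carrier whose longer form is the peroxisomal thiolase SCPx, had log2 levels of 8.84 and 8.99 in Ctrl and 9.55 and 9.62 in Bex, or 1.59-fold higher (0.67 ± 0.10). Both peroxisomal enzymes thus differed less than Pex11a, by values that were not tested against it. None of the 21 genes of the carnitine shuttle and mitochondrial beta-oxidation and none of the 6 acyl-CoA binding proteins was named.

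Of 26 other PPAR targets 14 were named, 13 higher and 1 lower. The main test passed 0 of them, as of all clusters (0%). The variance-trend fit passed 11 of the higher genes, beside 0.762% of all clusters called higher, and the lower one, beside 0.439% called lower. These rows were preselected for their difference, and 62.6% of all rows with 1 symbol in the authors' deposited table were higher. Their median log2 difference was 1.56, against 1.20 for the 4 members and −0.01 over all clusters. The fatty acid carrier Fabp3 (3.51 ± 0.20) and the transporter Cd36 (3.05 ± 0.18) lay far above the 4 members. Pex11a lay beside the hormone Fgf21 (1.52 ± 0.09) and the lipoprotein lipase Lpl (1.47 ± 0.08), and the thioesterases beside the mitochondrial carrier Ucp3 (1.22 ± 0.14). Angptl4 (0.95 ± 0.09), an inhibitor of lipoprotein lipase, and Hilpda (0.89 ± 0.16) were higher but lay below all 4 members. Txnip (−0.67 ± 0.08), an inhibitor of thioredoxin, was the only lower gene.

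**Figure D4:**
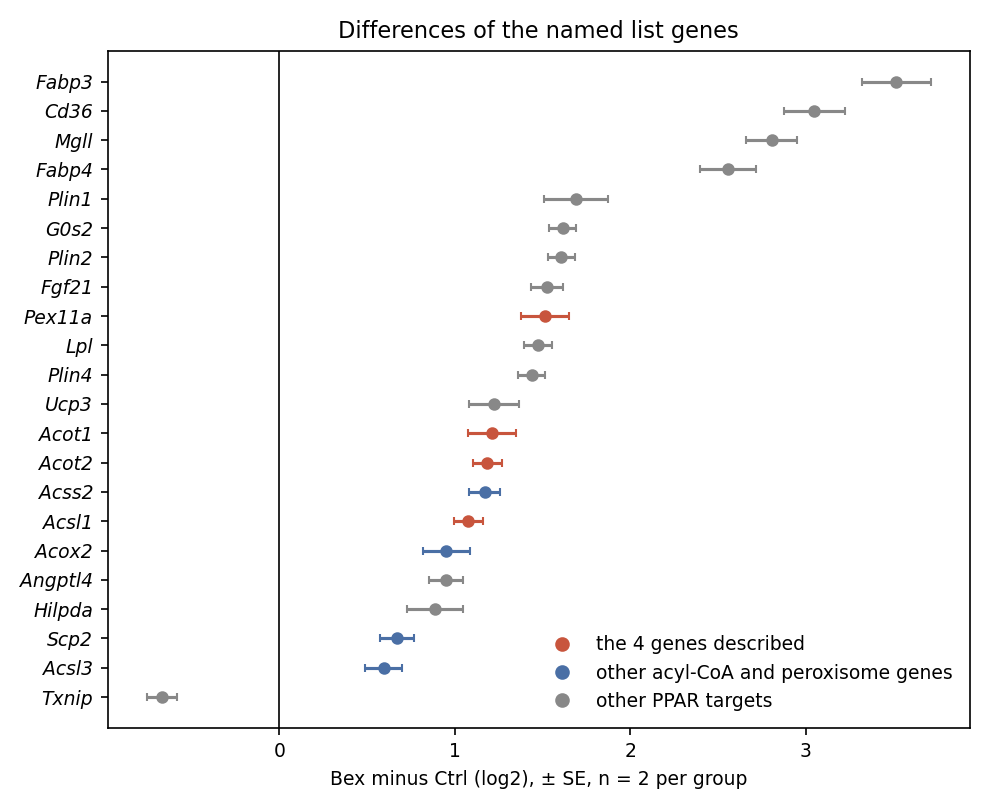
Bex minus Ctrl (log2, horizontal axis, bars ± SE of the limma fit, n = 2 per group) for the 4 genes described (red), the other named acyl-CoA and peroxisome genes (blue) and the other named PPAR targets (grey), ordered by size. The 4 genes lie between 1.08 and 1.51, below Fabp3 at 3.51 and above Acsl3 at 0.59.

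The genes next to the members were looked up in the RefSeq gene table. Acot2 and Acot1 are direct neighbours on chromosome 12, with Acot4 and Acot3, further thioesterases, beyond Acot1. Pex11a lies on chromosome 7 directly beside Plin1, the lipid droplet coat protein of fat cells, and in mouse a PPAR element between these 2 genes is known to serve both. Acsl1 lies on chromosome 8 beside Cenpu. Within 3 genes on either side of the members there were 18 further genes, of which Plin1 alone was named. Plin1 had log2 levels of 6.27 and 6.17 in Ctrl and 7.69 and 8.14 in Bex. It was 3.23-fold higher (1.69 ± 0.18), beside 2.86-fold (1.51 ± 0.14) for Pex11a. The Bex arrays were 0.45 apart for Plin1 and 0.30 for Pex11a, further than the Ctrl arrays (0.0957 and 0.0594), and for both genes Bex replicate 2 was the higher one. Some genes elsewhere had this order too. The 3 genes nearest to Pex11a in pattern, given below, do not include Plin1. In Bex they had 8.49 and 8.84 (Elovl4), 7.67 and 8.05 (Pygm) and 6.92 and 7.27 (Agt), again with replicate 2 higher. These 3 were picked for likeness to Pex11a on the same arrays, so that order was built into the choice. How common it is among other genes was not counted. Whether the shared element has a part in these values was not tested.

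The genes with the most similar pattern were those with the smallest root mean square difference of centred log2 values over the 4 arrays, among all other clusters with 1 symbol. With 4 arrays in 2 groups this measure mostly follows the size of the difference. Nearest to Acot2 were the fatty acid synthase Fasn (0.0234), Acss2 (0.0337) and the myoglobin gene Mb (0.0475). Nearest to Acsl1 were the axon guidance protein gene Slit2 (0.0175), Cox8b, a cytochrome oxidase subunit of brown fat and muscle (0.0267), and Spry1, an inhibitor of growth factor signalling (0.0279). Acot1 was nearest to the protease gene Tll1 (0.0237), whose Ctrl level of 4.38 on one array lay under 4.57, to the pyruvate carboxylase gene Pcx (0.0459) and to Chchd10, a small mitochondrial protein (0.0704). Pex11a was nearest to Elovl4, an elongase of very long fatty acids (0.0219), Pygm, the glycogen phosphorylase of muscle (0.0441), and Agt, angiotensinogen (0.0540). No member was among the nearest 3 of another; the closest pair of members was Acot2 and Acsl1 (0.0823).

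Markers of cell types also differed between the same arrays. Of 9 muscle markers 5 were named, 4 higher (Myh3, Ttn, Ckm, Mb) and 1 lower (Pax7), and their mean log2 value was 9.12 to 9.22 in Ctrl and 9.75 to 9.90 in Bex. Of 6 adipocyte markers 3 were named (Fabp4, Plin1, Pparg), all higher, with a mean of 6.79 to 6.99 in Ctrl and 8.81 to 9.04 in Bex. Of 5 brown adipocyte markers Cox8b and Ppargc1a were named, both higher, with a mean of 6.99 to 7.06 in Ctrl and 7.82 to 7.99 in Bex. That mean joins unlike levels. In Ctrl, Cox8b was at 9.35 and 9.19, and Ppargc1a at 4.77 and 4.79, near the limit of 4.57 for dim clusters. Cox8b is also a muscle gene, and muscle markers were higher too, so these values do not tell brown fat from muscle. Both named fibroblast markers of 5, Dcn and Cd34, were lower, at 7.17 to 7.24 in Ctrl and 6.19 to 6.22 in Bex. The macrophage marker Cd14, the only one named of 4, was at 6.35 to 6.74 in Ctrl and 7.44 to 7.46 in Bex. All arrays are of C2C12 cells, so the names of these lists do not show that fibroblasts or macrophages were present. The named muscle markers were at log2 values of 7.82 or more on every array, while Myod1, Myf5, Myog, Des, Ucp1 and the other unnamed markers were not analysed here. The part of these differences in the values of the 4 genes was not tested.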

How the data were processed

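Amplified, biotin-labelled RNA of 4 samples was hybridised to the Affymetrix Mouse Gene array, per the labels and the design text. The authors deposited log2 values made by RMA with core exons in Affymetrix Expression Console, per the labels; RMA evens out the overall level across arrays. A further deposited table gives log2 averages per group (bi-weight), a signed fold change (a score, Bex over Ctrl where positive), ANOVA p-values and FDR p-values, per the file headers. Those headers call the groups CK+Bex and CK. Here CK was read as Ctrl, because it is the other group of the comparison. The submitters' processing notes name Transcriptome Analysis Console. The table holds 559 rows, 545 of them with 1 symbol. For versions, build and annotation release the entry is: not given in the sources used here.

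All 35557 clusters were fitted with limma 3.58.1 in R 4.3.3 (lmFit, eBayes, no covariate or filter, Benjamini-Hochberg adjustment at 0.05), and the fit was tested on simulated data. It gave standard errors and background counts. The highest mean decided among several clusters of a gene. The members and lists were chosen with earlier results of these data known. Named genes are the members, every named list gene, named genes within 3 genes of a member, the 3 of most similar pattern, and cell type markers. Python 3.11.15 with pandas 2.3.3 did the rest. Alternatives were a variance trend, a replicate block, quantile normalization, a median shift, a filter of dim clusters, the authors' averages, other thresholds and each array left out. Depth does not apply to arrays. A result of 1 further gene is not reported here.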

Additional observations from a re-analysis of the deposited data

How the results depend on the processing

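The difference of each of the 4 genes kept its direction under every alternative run for it. Their groups did not overlap, so leaving out an array could not have reversed a direction. After a median shift and after quantile normalization each moved by less than its SD between replicates. With each array left out in turn the log2 difference ranged from 1.08 to 1.34 for Acot1, from 1.14 to 1.23 for Acot2, from 1.03 to 1.12 for Acsl1 and from 1.36 to 1.67 for Pex11a. With the group averages of the authors' deposited table it was 1.44 for Acot1, more than 1 SD from 1.21. The cause was not tested. Of the 22 named list genes, 21 were higher and 1 lower, also with each array left out. These rows were preselected for their difference and their groups did not overlap. Leaving out an array could therefore not change this count, and nothing is read from its stability. At 2-fold or more 16 were higher and 0 lower, since Txnip differed less. In both same-numbered pairs (replicate block) 20 were higher by 1.5-fold or more. The count of 0 clusters called was also 0 with the replicate block, a median shift, quantile normalization and each array left out. A count of 0 cannot fall, and without an array 1 group has a single array, assumed to vary like the other, and the lowest limma adjusted p was 0.349 to 0.588, so little can be read from these counts. It became 427 with a variance trend, 105 without the dimmest 30% of clusters, 80 at an adjusted p of 0.1 and 2292 at 1.5-fold with no test. Chosen after seeing the data, leaving out the 6669 clusters with IDs below those of the authors' table gave 297, and 1292 with the trend as well. Whether same-numbered arrays share a batch of cells is unknown. Their deviations from the group means had a correlation of 0.00786 across all clusters and 0.045 without those of low ID; clusters are not independent. The block left the mean differences as they were and gave SEs of 0.16 for Acot1, 0.10 for Acot2, 0.10 for Acsl1 and 0.12 for Pex11a.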

Other observations

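Beyond the lists, some further genes have coenzyme A in the description of the authors' deposited table. The 4 given here were chosen after their values were seen, and their rows were selected for their difference. The other such rows, higher or lower, were not counted, so the shared direction of these 4 is not a result. Of all rows with 1 symbol 62.6% were higher. Hmgcs1, an enzyme of the mevalonate route, was higher with Bex (1.31 ± 0.09, log2, SE, n = 2 per group), with values of 8.71 and 8.73 in Ctrl and 10.1 and 9.97 in Bex that did not overlap. Acat2, which joins acetyl-CoA units (1.05 ± 0.12), the desaturase Scd1 (0.71 ± 0.09) and Echdc1, which removes ethylmalonyl-CoA (0.67 ± 0.09), were also higher.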
